A study of Mus musculus with 23 samples.

Results

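The comparison set 4 libraries of extra-embryonic tissue (ExE) from mouse embryos heterozygous for a Tet1 gene trap (Tet1gt/wt, Zwt in the labels) against 4 libraries of wild-type ExE (wt). These are 8 of the 23 libraries of the series, and all genes of the deposited count table were examined. All embryos were taken at E6.25, soon after implantation. Each library was made from pooled lysates of at least 6 embryos out of 2 to 3 litters, and embryos were assigned to a pool by genotyping afterwards. The heterozygous pools carry the numbers 1, 2, 3 and 5 and the wt pools the numbers 1, 2, 4 and 5. The strain, the sex of the embryos and the position of the trap within Tet1 were not stated in the sources used here. Homozygous pools (Tet1gt/gt) of ExE and epiblast (E) served to place genes by tissue, and E pools of heterozygous and wt embryos (4 libraries each) served to test whether the difference was particular to ExE.

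TET1 is a dioxygenase that oxidises 5-methylcytosine to 5-hydroxymethylcytosine, a step towards removal of DNA methylation, and it also recruits chromatin repressors such as the SIN3A complex. The ExE of the egg cylinder contains the extra-embryonic ectoderm, which holds trophoblast stem cells, and its derivative, the ectoplacental cone, from which giant cells and spongiotrophoblast arise. Epiblast FGF4 keeps trophoblast stem cells dividing, and the ectoderm in turn sends BMP4 to the epiblast. The genome of the ectoderm is less methylated than that of the epiblast, and imprinted genes are known for their part in placental growth. Visceral endoderm covers both tissues and can stay attached when they are cut apart.

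The promoter windows of 4 genes described here are shown because they carry the CpG sites on which TET and DNA methyltransferase enzymes act. Each runs from 250 bases before to 50 bases after a transcript start listed by RefSeq (GRCm38.p6) and is written 5′ to 3′ on the gene's strand, with CpG sites in capitals. The windows are those of Tet1 (chr10:62887275-62887574, minus strand, 17 CpG sites), Dnmt3b (chr2:153649199-153649498, plus strand, 30 CpG sites), Phlda2 (chr7:143502475-143502774, minus strand, 26 CpG sites) and Krt7 (chr15:101412153-101412452, plus strand, 21 CpG sites). For Tet1, Phlda2 and Krt7 this start lies inside the GENCODE gene bounds given with their values, which also take in transcripts with other starts.
Tet1: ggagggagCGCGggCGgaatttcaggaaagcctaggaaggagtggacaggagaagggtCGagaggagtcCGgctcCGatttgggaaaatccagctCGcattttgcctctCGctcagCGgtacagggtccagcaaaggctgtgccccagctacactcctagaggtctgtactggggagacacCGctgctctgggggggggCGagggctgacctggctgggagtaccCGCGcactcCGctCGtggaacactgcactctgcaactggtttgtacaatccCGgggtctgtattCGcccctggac
Dnmt3b: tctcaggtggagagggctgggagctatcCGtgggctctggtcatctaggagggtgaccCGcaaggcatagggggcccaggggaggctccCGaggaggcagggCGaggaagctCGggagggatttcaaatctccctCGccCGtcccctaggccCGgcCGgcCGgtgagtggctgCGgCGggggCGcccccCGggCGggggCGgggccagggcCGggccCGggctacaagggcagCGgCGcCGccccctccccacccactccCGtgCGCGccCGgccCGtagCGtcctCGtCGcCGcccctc
Phlda2: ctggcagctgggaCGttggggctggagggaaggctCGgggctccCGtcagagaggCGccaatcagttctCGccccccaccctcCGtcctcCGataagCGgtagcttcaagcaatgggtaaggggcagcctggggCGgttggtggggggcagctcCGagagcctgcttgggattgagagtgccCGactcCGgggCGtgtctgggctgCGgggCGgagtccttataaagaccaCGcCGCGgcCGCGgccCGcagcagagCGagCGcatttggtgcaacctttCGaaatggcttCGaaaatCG
Krt7: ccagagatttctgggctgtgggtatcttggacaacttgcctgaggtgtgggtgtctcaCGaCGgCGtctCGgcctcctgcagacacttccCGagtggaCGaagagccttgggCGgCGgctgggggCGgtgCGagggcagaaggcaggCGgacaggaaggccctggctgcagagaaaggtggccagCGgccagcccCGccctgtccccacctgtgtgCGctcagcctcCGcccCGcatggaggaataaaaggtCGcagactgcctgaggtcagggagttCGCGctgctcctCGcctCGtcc

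Total counts were 6810141 to 9494814 in the heterozygous pools and 7336244 to 9014864 in the wt pools. At these depths 3 counts, the limit that a count of 0 allows, stand for 0.320 to 0.430 CPM (counts per library total, on the usual scale, adjusted between libraries by TMM) in heterozygous pools and 0.332 to 0.406 CPM in wt pools, for counting error only. The slopes of library deviations lay between -0.105 and 0.103 on log2 transcript length, and between -0.125 and 0.234 per 10% of GC content, with the highest GC slope in wt pool 4. One wt library stood apart: wt pool 1 was the lowest of the 8 for Y-linked genes and the highest for visceral endoderm markers. For part of the log2 fold changes and list medians, the value without it is also given. Values given only with this pool can move too. Without wt pool 1, Pou5f1 went from -1.93 to -1.34, Dnmt3a from -1.57 to -1.05 and Trim44 from -2.16 to -1.57.

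Tet1 (chr10:62804570-62908996, minus strand, GENCODE M21) came first, as the check of the labels. Heterozygous pools 1, 2, 3 and 5 had 45.7, 50.2, 39.3 and 57.1 CPM, against 109.9, 98.2, 98.8 and 77.1 CPM in wt pools 1, 2, 4 and 5. The groups did not overlap, and the heterozygous level was 50.1% ± 7.81 of the wt mean (SD, n = 4). The difference of -0.996 in mean log2 CPM had p = 0.0286 in a two-sided exact permutation test, the smallest p that 4 against 4 pools allow. Tet1 had the smallest p of all 11578 genes tested with edgeR, with a log2 fold change of -0.99 ± 0.17 (SE) and an adjusted p of 0.362. With DESeq2 its adjusted p was 0.000235. The 3 homozygous ExE pools had 21.5, 24.2 and 37.8 CPM.

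**Figure D1:**
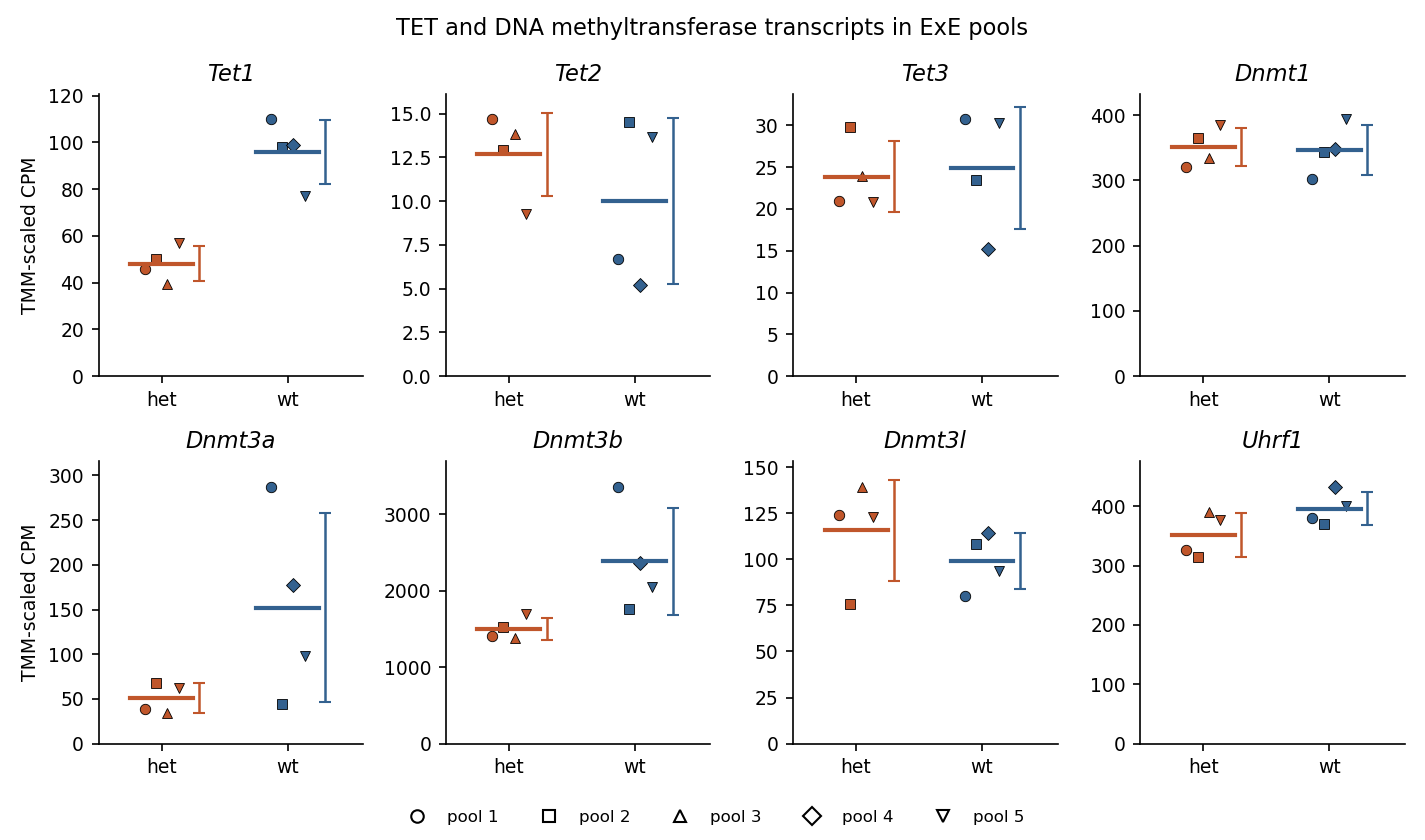
TMM-scaled CPM (vertical axes, linear, from 0) of Tet1, Tet2, Tet3 and genes of DNA methylation in heterozygous (het, left) and wild-type (wt, right) ExE pools; symbols mark the pool number, horizontal bars the mean and error bars the SD (n = 4). Tet1 and Dnmt3b do not overlap between the groups. For Dnmt3a, heterozygous pools 2 and 5 lie within the wide wt range and pools 1 and 3 below it.

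The other TET genes showed no difference past the spread between pools. Tet2 averaged 12.7 ± 2.39 CPM in heterozygous and 10.0 ± 4.73 CPM in wt pools (SD, n = 4 each), and the log2 fold change was 0.34 ± 0.38, or 0.19 without wt pool 1. Tet3 averaged 23.9 ± 4.23 CPM in heterozygous and 24.9 ± 7.28 CPM in wt pools, with -0.06 ± 0.27, or 0.06 without wt pool 1. The edgeR adjusted p-values were 0.926 and 0.987.

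Among the methyltransferase genes, Dnmt3b and Dnmt3a, which encode the de novo enzymes, had lower means in heterozygous pools. Dnmt3b had 1406, 1523, 1384 and 1701 CPM in heterozygous pools and 3363, 1759, 2367 and 2049 CPM in wt pools. All heterozygous values lay below all wt values, although wt pool 2 exceeded heterozygous pool 5 by little. The log2 fold change was -0.66 ± 0.16 with an edgeR adjusted p of 0.452, and -0.42 when the epiblast marker level entered the model. Dnmt3a had 38.4, 68.2, 34.8 and 62.8 CPM in heterozygous pools and 287.4, 44.6, 177.7 and 97.9 CPM in wt pools. The groups overlapped through wt pool 2, the wt pool with the lowest epiblast marker level. Its log2 fold change of -1.57 ± 0.43 became -0.57 with that level in the model. Dnmt3l, the catalytically inactive cofactor, Dnmt1, the maintenance enzyme, and Uhrf1, which brings DNMT1 to hemimethylated DNA, had log2 fold changes of 0.23 ± 0.18, 0.02 ± 0.11 and -0.16 ± 0.11. Their edgeR adjusted p-values were 0.882, 0.987 and 0.853, and without wt pool 1 the log2 fold change was 0.14 for Dnmt3l and -0.03 for Dnmt1. Jmjd8, a JmjC-domain protein gene, averaged 6.56 ± 1.66 CPM in heterozygous and 6.86 ± 1.84 CPM in wt pools, and its adjusted p was 0.992.

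Across all genes, 0 of 11578 (0%) passed an adjusted p of 0.05 in edgeR, and limma-voom called 0. At an unadjusted p under 0.05, edgeR gave 746 genes (6.44%), of which 256 (2.21%) were higher and 490 (4.23%) lower in heterozygous pools. Of all genes tested, 49.9% had a positive log2 fold change. The 4 heterozygous pools lay wholly above the 4 wt pools for 214 genes (1.85%) and wholly below them for 231 (2%). DESeq2 called 44 genes (0.38%), 7 higher (0.0605%) and 37 lower (0.32%). In counts simulated at these depths, edgeR recovered 53% of 100 genes changed 2-fold and 88% of 100 changed 4-fold, with 4 false calls. With 4 pools a group, a 2-fold change was thus often not called. The changed genes were drawn above a minimum mean CPM and each gene varied on its own. The shares therefore do not cover genes of low level or differences in tissue content that genes share. Both sets of changed genes were in the same run, and an adjusted p depends on how many genes change. The shares thus hold for that many changed genes and would be lower with fewer.

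The marker lists described the tissue of each pool. Markers of extra-embryonic ectoderm and trophoblast stem cells summed to 4289 to 4735 CPM in heterozygous pools and 2917 to 4691 CPM in wt pools, so the labelled tissue carried its defining genes in all 8. The lowest sum was that of wt pool 1. Of ectoplacental cone markers, Tpbpa, Prl2c2 and Ctsq, genes of later spongiotrophoblast and giant cells, had 0 counts in all 8 pools. The epiblast marker level, the mean log2 CPM of 13 genes, was 4.60, 4.14, 3.40 and 4.57 in heterozygous pools and 6.22, 3.20, 5.80 and 5.08 in wt pools. Wt pools 1, 4 and 5 lay above all heterozygous pools and wt pool 2 below all of them. In the wt epiblast pools the same level was 7.11 to 7.39.

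**Figure D2:**
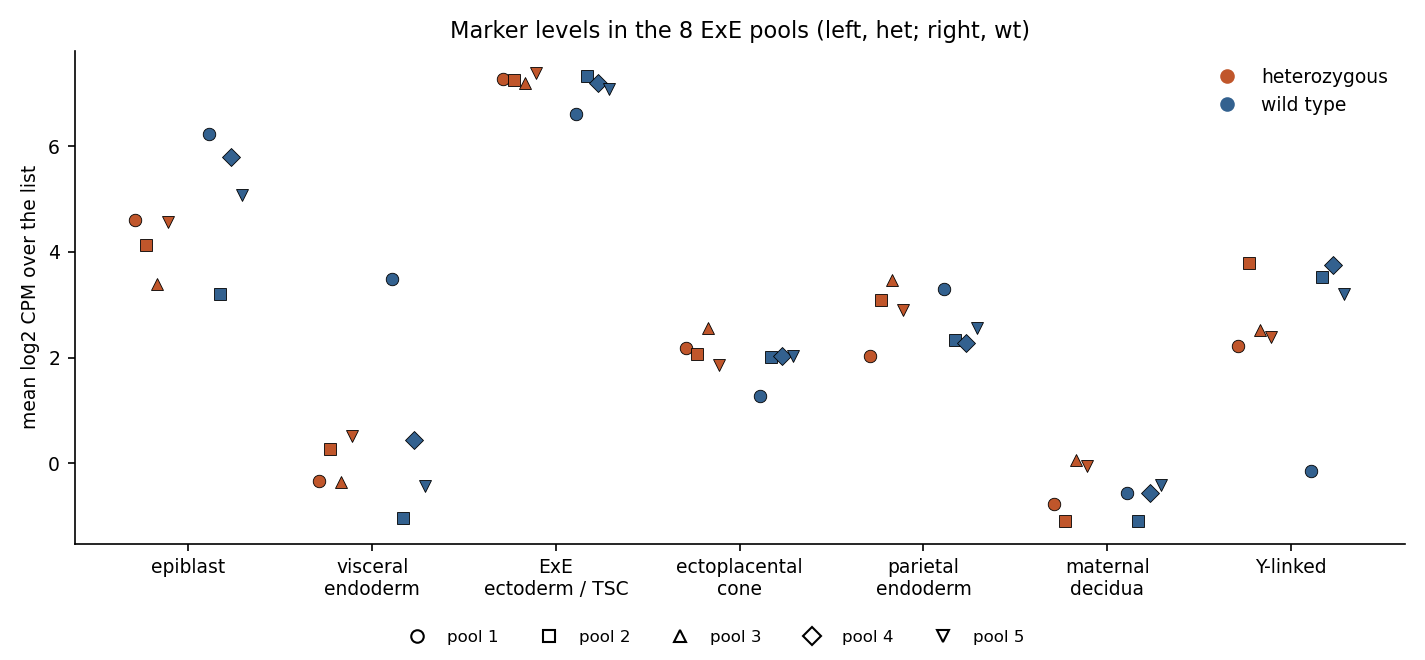
Mean log2 CPM (vertical axis) of 7 marker lists in the 8 ExE pools, with heterozygous pools at the left and wild-type pools at the right of each list; each symbol is 1 pool. Wt pool 1 is highest for epiblast and visceral endoderm markers and lowest for ectoderm, ectoplacental cone and Y-linked genes, and wt pool 2 is lowest for epiblast markers.

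All 13 epiblast markers were tested and all 13 had negative log2 fold changes, with a median of -1.33 against -0.000832 over all genes. Of them 6 were lower at an unadjusted p under 0.05 in edgeR, against 4.23% of all genes, and 0 separated the groups, against 2% of all genes wholly lower. Pou5f1, the pluripotency factor OCT4, had 42.7, 37.6, 13.5 and 64.9 CPM in heterozygous pools and 301.8, 19.6, 198.9 and 85.4 CPM in wt pools (log2 fold change -1.93 ± 0.61). Slc7a3, an amino acid transporter, and Foxd3, an epiblast transcription factor, were likewise highest in wt pool 1 and low in wt pool 2, with -2.07 ± 0.69 and -2.95 ± 1.00, or -1.28 and -1.71 without wt pool 1. Pou3f1, Utf1 and Sox3, transcription regulators that the homozygous ExE expressed within 2-fold of the homozygous epiblast, had -0.21 ± 0.12, -0.10 ± 0.13 and -0.09 ± 0.21 (Sox3 -0.20 without wt pool 1). In these bulk pools, fewer cells of a type and less RNA per cell cannot be told apart. The list median was -0.84 without wt pool 1 and -1.73 without wt pool 2.

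Visceral endoderm markers summed to 37.2 to 55.4 CPM in heterozygous pools, against 471.3 CPM in wt pool 1 and 21.8 to 60.0 CPM in the other wt pools. Dab2, an endocytic adaptor, had 3.73, 2.44, 10.5 and 10.3 CPM in heterozygous pools and 141.3, 1.44, 9.62 and 8.52 CPM in wt pools. Apoa1, an apolipoprotein, and Lrp2, the receptor megalin, were also highest in wt pool 1, with 60.5 and 33.4 CPM there. The difference of this list rested on that pool: the median over its 7 tested members of 22 was -1.07 with it and 0.06 without it. Maternal decidua markers summed to 8.88 to 28.8 CPM in heterozygous and 5.87 to 18.1 CPM in wt pools. The Y-linked level was 2.21 to 3.79 in heterozygous pools, -0.14 in wt pool 1 and 3.21 to 3.75 in the other wt pools, while Xist had 14.1 to 55.5 CPM in heterozygous and 21.9 to 94.4 CPM in wt pools. Of 423 X-linked genes tested, 194 were higher, with a median log2 fold change of -0.03.

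Each gene was also placed by its log2 difference between tissues in homozygous pools, which take no part in the comparison, to describe how the genotype difference varied with the tissue preference of a gene. The genotype difference was graded along that order. Of 238 genes more than 8-fold (3 on the log2 scale) higher in epiblast, 5.88% had a positive log2 fold change and the median was -1.63. Of 1267 genes higher in epiblast by 1 to 3 log2 units, 18.8% were positive and the median was -0.45. The median was 0.01 for 8360 genes within 1 unit, 0.14 for 1374 genes higher in ExE by 1 to 3 units and 0.20 for 339 genes higher in ExE by over 3 units. The ExE side of this order rested on homozygous ExE pools 1 and 4 only. These pools differed widely for some genes, such as Krt7 with 88.8 and 3.53 CPM. The epiblast marker level of pool 4 lay above that of all heterozygous ExE pools, and that of pool 1 did not. Whether this moved genes between the groups was not tested.

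Of the 490 genes lower at an unadjusted p under 0.05, 300 (61.2%) were higher in epiblast by over 1 unit, against 13% of all genes tested. Of the 256 higher genes, 121 (47.3%) were higher in ExE by over 1 unit, against 14.8%. With the epiblast marker level in the edgeR model the 5 medians became -0.17, -0.17, 0.02, 0.06 and 0.12, from the epiblast end to the ExE end, and the lower genes numbered 283 in place of 490. Without wt pool 1 the medians in the same order were -1.02, -0.29, 0.01, 0.05 and 0.08, and the lower genes numbered 320.

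**Figure D3:**
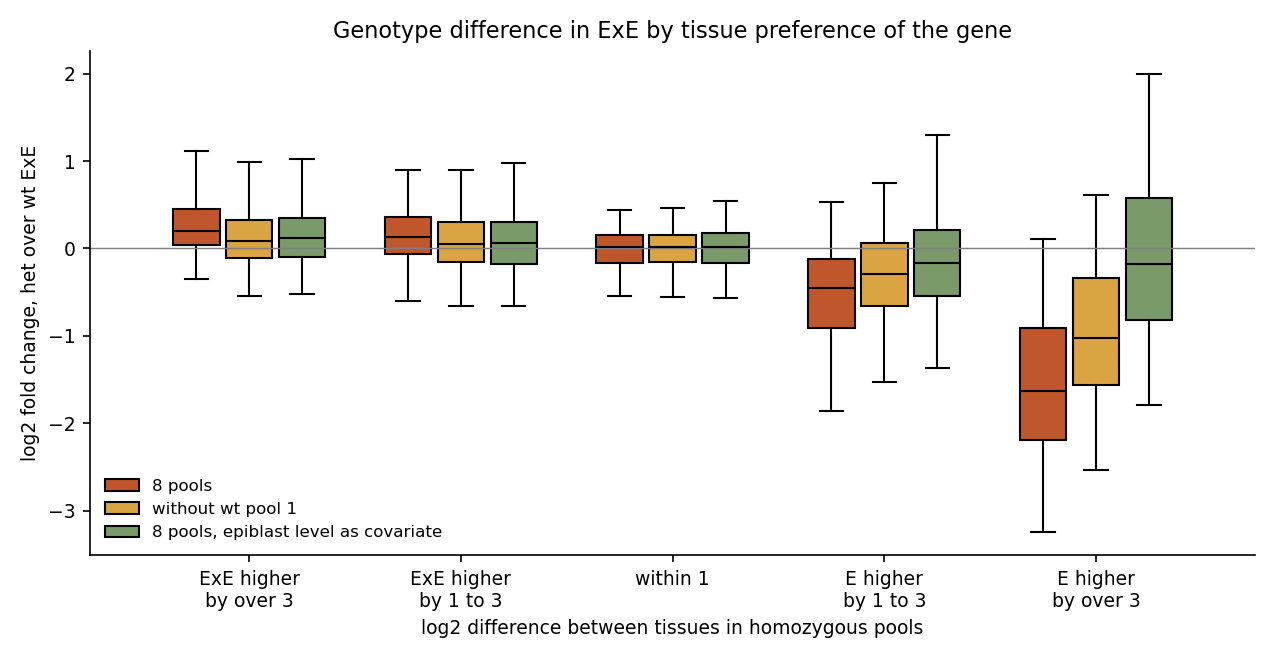
Log2 fold change of heterozygous over wild-type ExE (vertical axis) for genes grouped by their log2 difference between tissues in homozygous pools (horizontal axis); boxes span the quartiles with the median, whiskers the 5th to 95th percentiles. With the 8 pools the medians run between 0.20 at the ExE end and -1.63 at the epiblast end, and the 4 medians outside the middle group lie nearer to 0 without wt pool 1 or with the epiblast level as a covariate.

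By the rule for named genes, 12 higher genes were taken by smallest p among those whose groups did not overlap and whose mean log2 CPM reached 1. Their edgeR adjusted p-values were 0.452 to 0.454, and DESeq2 called 5 of them. Krt7 (chr15:101411043-101430313), a keratin of trophoblast epithelium, had 42.3, 33.0, 47.4 and 19.2 CPM in heterozygous pools and 7.68, 18.7, 13.9 and 10.0 CPM in wt pools (log2 fold change 1.50 ± 0.34, DESeq2 adjusted p 0.0153). Gata2 (chr6:88193891-88207032), a transcription factor of trophoblast giant cells, had 73.6, 35.1, 77.4 and 32.1 CPM in heterozygous pools and 12.1, 31.7, 11.5 and 19.2 CPM in wt pools (1.55 ± 0.37). Its lowest heterozygous pool, number 5, and wt pool 2 nearly met. Phlda2 (chr7:143501545-143503150), an imprinted gene that restrains placental growth, had 480.6, 291.0, 583.5 and 256.8 CPM in heterozygous pools and 117.7, 224.5, 227.1 and 177.8 CPM in wt pools (1.12 ± 0.26).

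The heterozygous pools were not alike in these genes. Pools 1 and 3 lay above pools 2 and 5 for 5 of the 12 genes, among them Krt7, Gata2 and Phlda2. The share of all genes with this order of pools was not counted. Of the heterozygous pools, 1 and 3 also had the highest ectoplacental cone sums, 793.3 and 1183 CPM, against 643.9 and 637.9 CPM in pools 2 and 5. The wt pools had sums of 329, 884.3, 585.9 and 595.8 CPM. Whether the ectoplacental content of the pools plays a part in these differences was not tested. In homozygous pools 1, 3 and 4 Krt7 had 88.8, 54.9 and 3.53 CPM and Phlda2 911.9, 983.2 and 160.7 CPM, so their spread within a genotype exceeded the difference between heterozygous and wt means.

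Adap1, an ARF GTPase-activating protein gene, had 16.7, 10.9, 43.9 and 9.06 CPM in heterozygous pools and 6.36, 6.53, 1.90 and 4.46 CPM in wt pools (2.06 ± 0.53). Heterozygous pool 3 stood well above the rest, as it did for the X-linked mRNA export gene Nxf7 (1.72 ± 0.46). Pramef12, of the PRAME family, and Pccb, a subunit of propionyl-CoA carboxylase, had 0.98 ± 0.24 and 1.12 ± 0.28. The polarity gene Pard6g had 0.90 ± 0.24 and the GTPase-activating protein gene Arhgap8 1.40 ± 0.38. The smallest differences of the 12 were the most even over pools. Mpi, mannose phosphate isomerase, had 51.4, 44.0, 40.4 and 52.4 CPM in heterozygous pools and 29.5, 32.9, 29.3 and 27.9 CPM in wt pools (0.66 ± 0.18). The X-linked Mageb16 had 102.4, 112.0, 108.4 and 113.1 CPM in heterozygous pools and 70.7, 87.4, 60.2 and 82.9 CPM in wt pools (0.54 ± 0.15), and 1700047I17Rik2 had 0.59 ± 0.16. Of the 12, 9 were higher in homozygous ExE than epiblast by over 1 log2 unit, and Adap1 fell just short (-0.994, epiblast minus ExE). With the epiblast covariate all 12 kept a positive value, between 0.44 and 1.59. These genes were chosen for groups that were apart, which favours an unchanged sign with the covariate.

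**Figure D4:**
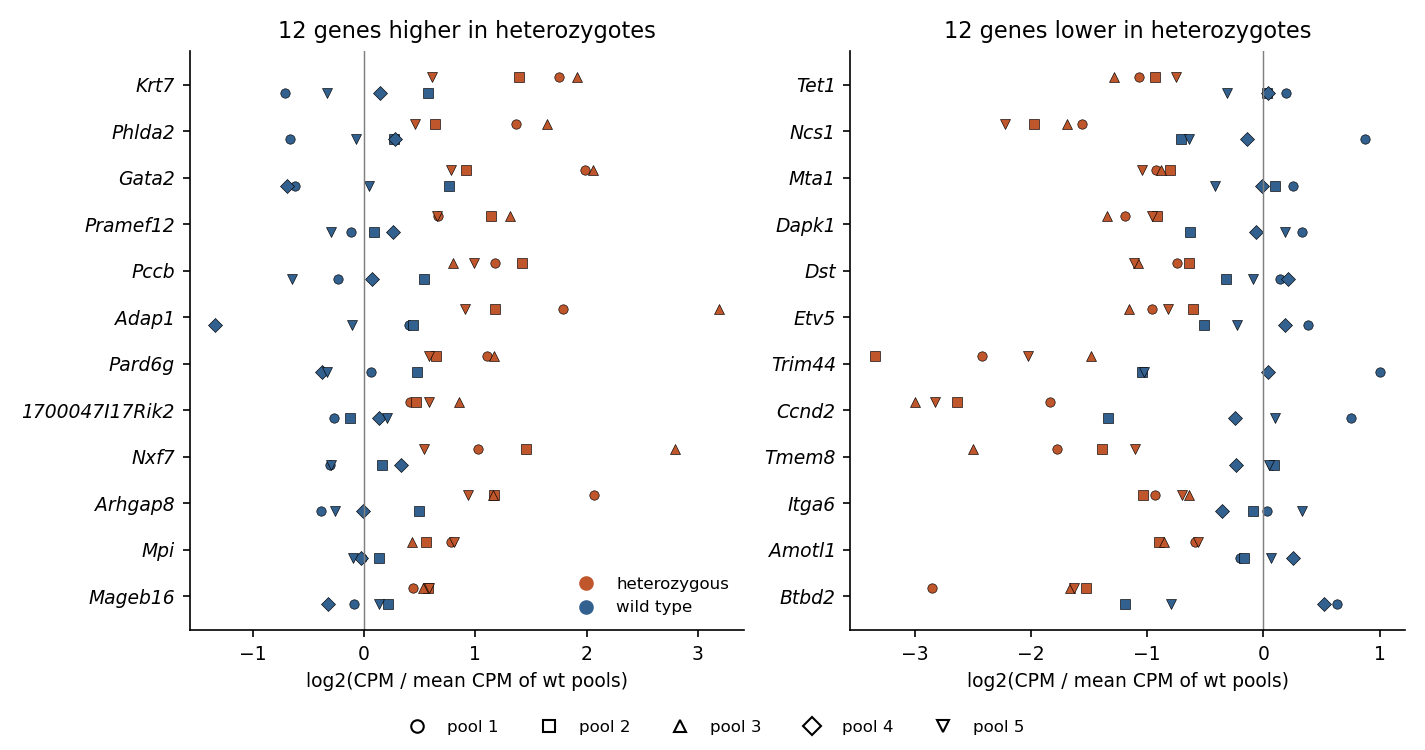
Level of each named gene in each pool relative to the mean of the wt pools (horizontal axes, log2 of the CPM ratio), for 12 genes higher (left panel) and 12 lower (right panel) in heterozygotes; in each line heterozygous pools stand above wild-type pools and symbols mark the pool number. The groups are apart by the rule of choice; the size of the gap and the spread within a genotype differ between genes, from narrow for Mpi and Mta1 to wide for Adap1 and Trim44.

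The 12 lower genes were led by Tet1, and their edgeR adjusted p-values were 0.362 to 0.452. DESeq2, run on the same counts, called all 12. In homozygous pools 10 of them were higher in epiblast by over 1 log2 unit, and in 8 wt pool 1 was the highest wt pool. With the epiblast covariate all 12 kept a negative value, between -1.82 and -0.59. Choosing genes whose groups were apart had placed wt pool 2, the pool of lowest epiblast level, above all heterozygous pools. The sign with the covariate was therefore largely set by the choice. Ncs1, a calcium sensor, had 11.6, 8.75, 10.6 and 7.35 CPM in heterozygous pools and 63.1, 21.0, 31.1 and 22.04 CPM in wt pools (log2 fold change -1.83 ± 0.36). Mta1, a subunit of the NuRD repressor, had 30.5, 33.1, 31.5 and 28.1 CPM in heterozygous pools and 68.9, 62.0, 57.5 and 43.3 CPM in wt pools (-0.91 ± 0.19). The heterozygous pools were close to each other for both genes.

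Tmem8 had 4.60, 6.02, 2.79 and 7.35 CPM in heterozygous pools and 16.7, 16.8, 13.4 and 16.4 CPM in wt pools (-1.60 ± 0.36). Wt pool 4 was the lowest of the wt pools. Etv5, an ETS factor induced by FGF signalling, had 91.6, 117.0, 79.9 and 100.8 CPM in heterozygous pools and 232.2, 124.6, 202.7 and 152.4 CPM in wt pools (-0.86 ± 0.19). Its wt values ran in the order of the epiblast marker level. Ccnd2, a G1 cyclin, had 2.74, 1.58, 1.23 and 1.39 CPM in heterozygous pools and 16.6, 3.88, 8.31 and 10.5 CPM in wt pools (-2.48 ± 0.56). It was lowest in wt pool 2 among the wt pools.

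Dapk1, death-associated protein kinase, Trim44 and Btbd2 had -1.08 ± 0.23, -2.16 ± 0.48 and -1.83 ± 0.42, and all were higher in homozygous epiblast by over 2 log2 units. Itga6, the laminin receptor subunit, had 33.9, 31.5, 41.4 and 39.7 CPM in heterozygous pools and 66.1, 60.6, 50.5 and 81.4 CPM in wt pools (-0.81 ± 0.19). Dst, a cytoskeletal linker, and Amotl1, an angiomotin of the Hippo pathway, were the only 2 of the 12 within 1 log2 unit between the homozygous tissues. For Dst the difference of 0.939, higher in epiblast, was close to that limit. Dst had 38.5, 41.3, 30.4 and 29.6 CPM in heterozygous pools and 70.9, 51.4, 74.7 and 60.3 CPM in wt pools (-0.87 ± 0.19). Amotl1 had 51.4, 41.4, 42.6 and 52.2 CPM in heterozygous pools and 67.2, 68.9, 91.8 and 80.7 CPM in wt pools (-0.71 ± 0.16).

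A further 2 genes, chosen after their values were seen, were called by DESeq2. Shc2, a signalling adaptor, had 0.548, 0.287, 0 and 0.107 CPM in heterozygous pools and 15.7, 1.22, 9.03 and 4.87 CPM in wt pools. Its wt values ran in the order of the epiblast marker level. Klhl13, an X-linked ubiquitin ligase adaptor, had 80.0, 120.4, 136.6 and 176.4 CPM in heterozygous pools and 62.4, 56.6, 59.7 and 87.9 CPM in wt pools (0.95 ± 0.22, DESeq2 adjusted p 0.0153).

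Of 545 tested genes of the lists, 0 passed the adjusted threshold in edgeR. DESeq2 called 7 of them, against 44 of 11578 (0.38%) of all genes, which were Tet1, Dnmt3b, Etv5, Ccnd2, Itga6, Meg3 and Nnat. All of these but Meg3 (0.51) were higher in homozygous epiblast by over 1 log2 unit. The edgeR fit on all 23 libraries called Ccnd2 and Nnat, among 20 genes in all. Each list is described by its counts and median. They were compiled with earlier results of these data known. Of 16 ectoderm and trophoblast stem markers, all tested, 11 were higher, and the median was 0.14, or 0.04 without wt pool 1. Tfap2c, the AP-2 gamma factor that maintains trophoblast, had 644.7, 553.3, 845.2 and 490.5 CPM in heterozygous pools and 280.4, 521.2, 369.6 and 399.8 CPM in wt pools (0.69 ± 0.19, edgeR adjusted p 0.454). Wnt7b, a ligand of the extra-embryonic ectoderm, had 0.08 ± 0.15, or -0.05 without wt pool 1. Of 9 ectoplacental cone markers tested of 15, 7 were higher, and the median was 0.41, or 0.19 without wt pool 1. Plac1, an X-linked placental gene, had 53.8, 16.9, 85.5 and 1.17 CPM in heterozygous pools and 2.28, 6.98, 6.29 and 5.95 CPM in wt pools. The heterozygous pools held both the highest and the lowest of the 8 values. Ascl2, the factor that maintains spongiotrophoblast precursors, had 153.1, 90.2, 196.5 and 65.6 CPM in heterozygous pools and 24.5, 99.9, 40.7 and 52.7 CPM in wt pools (1.22 ± 0.39). Cited2 and Ndrg1 had 0.55 ± 0.24 and 0.52 ± 0.25, and Hand1, a giant cell factor, 0.16 ± 0.28, or -0.06 without wt pool 1.

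The Rhox genes, a cluster of X-linked homeobox genes active in trophoblast, were higher in 9 of 10 tested of 17 listed, with a median of 0.44, or 0.36 without wt pool 1. Of the 10, 6 were higher at an unadjusted p under 0.05 in edgeR, against 2.21% of all genes. Rhox4a had 158.1, 146.2, 134.5 and 158.2 CPM in heterozygous pools and 80.2, 125.1, 112.7 and 113.2 CPM in wt pools (0.47 ± 0.15, edgeR adjusted p 0.579). Rhox4d and Rhox4e were close to it with 0.46 ± 0.17 and 0.49 ± 0.17. These copies are nearly identical, so their reads cannot be assigned with certainty and they are not separate observations. Rhox5 and Rhox9 had 0.29 ± 0.14 and 0.80 ± 0.36, and Rhox5 0.16 without wt pool 1.

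Imprinted genes went both ways, with 17 higher and 19 lower of 36 tested of 48, and a median of -0.07. At an unadjusted p under 0.05 in edgeR 4 were higher and 3 lower, against 2.21% and 4.23% of all genes. On distal chromosome 7, a region chosen after its values were seen, 8 of 12 tested genes of the list were higher. Besides Phlda2 and Ascl2, Cdkn1c, a cell cycle inhibitor, had 193.7, 154.6, 178.3 and 139.2 CPM in heterozygous pools and 98.3, 133.6, 150.7 and 129.2 CPM in wt pools (0.39 ± 0.16). Smoc1, a secreted calcium-binding protein gene, had 0.63 ± 0.20 with no overlap, although heterozygous pool 5 (54.2 CPM) and wt pool 5 (54.1 CPM) nearly met. Meg3, a maternally expressed long non-coding RNA, had 88.3, 84.2, 80.6 and 89.8 CPM in heterozygous pools and 118.9, 129.7, 178.7 and 111.0 CPM in wt pools (-0.65 ± 0.16, edgeR adjusted p 0.452, DESeq2 0.0384). The heterozygous pools spanned less than 10 CPM. Nnat, a paternally expressed gene, had 1.43, 1.58, 1.23 and 2.34 CPM in heterozygous pools and 14.4, 2.99, 14.1 and 5.81 CPM in wt pools (-2.49 ± 0.59), and Gnas, the stimulatory G protein alpha subunit, -0.39 ± 0.13.

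The FGF, Nodal and WNT lists had negative medians, and the BMP median lay near 0. Of 25 FGF and ERK genes tested of 26, 22 were lower with a median of -0.16, and 4 were lower at an unadjusted p under 0.05 in edgeR, against 4.23% of all genes. Besides Etv5, Fgf8, a ligand, had 6.79, 5.16, 7.81 and 3.30 CPM in heterozygous pools and 37.9, 4.43, 21.3 and 12.7 CPM in wt pools, in the wt order of the epiblast markers. The adaptor Shc1 had -0.35 ± 0.14. Of 14 Nodal genes tested of 16, 11 were lower (median -0.25). Lefty1, a secreted Nodal inhibitor, Tdgf1, the Nodal co-receptor CRIPTO, and Nodal had -2.42 ± 0.83, -1.19 ± 0.45 and -2.17 ± 0.94, and with the epiblast covariate -1.80, -0.40 and 0.17. Nodal had -1.35 without wt pool 1. Of 21 WNT genes tested of 25, 16 were lower (median -0.23). Those of smallest p were the transcription factor Lef1 (-2.40 ± 0.77) and the receptor Fzd7 (-0.86 ± 0.29), which had -0.17 and -0.29 with the covariate and -1.18 and -0.56 without wt pool 1. Tcf7 had -0.30 ± 0.15. BMP genes, 18 tested of 20, had a median of 0.02 with 11 higher, and the median was -0.09 without wt pool 1 and -0.05 with the covariate. Id3, a BMP target, had -1.34 ± 0.48, with -0.08 under the covariate and -0.71 without wt pool 1. The mediator Smad1 and the receptor Bmpr2 had -0.49 ± 0.26 and -1.13 ± 0.60, and Smad1 -0.235 without wt pool 1.

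**Figure D5:**
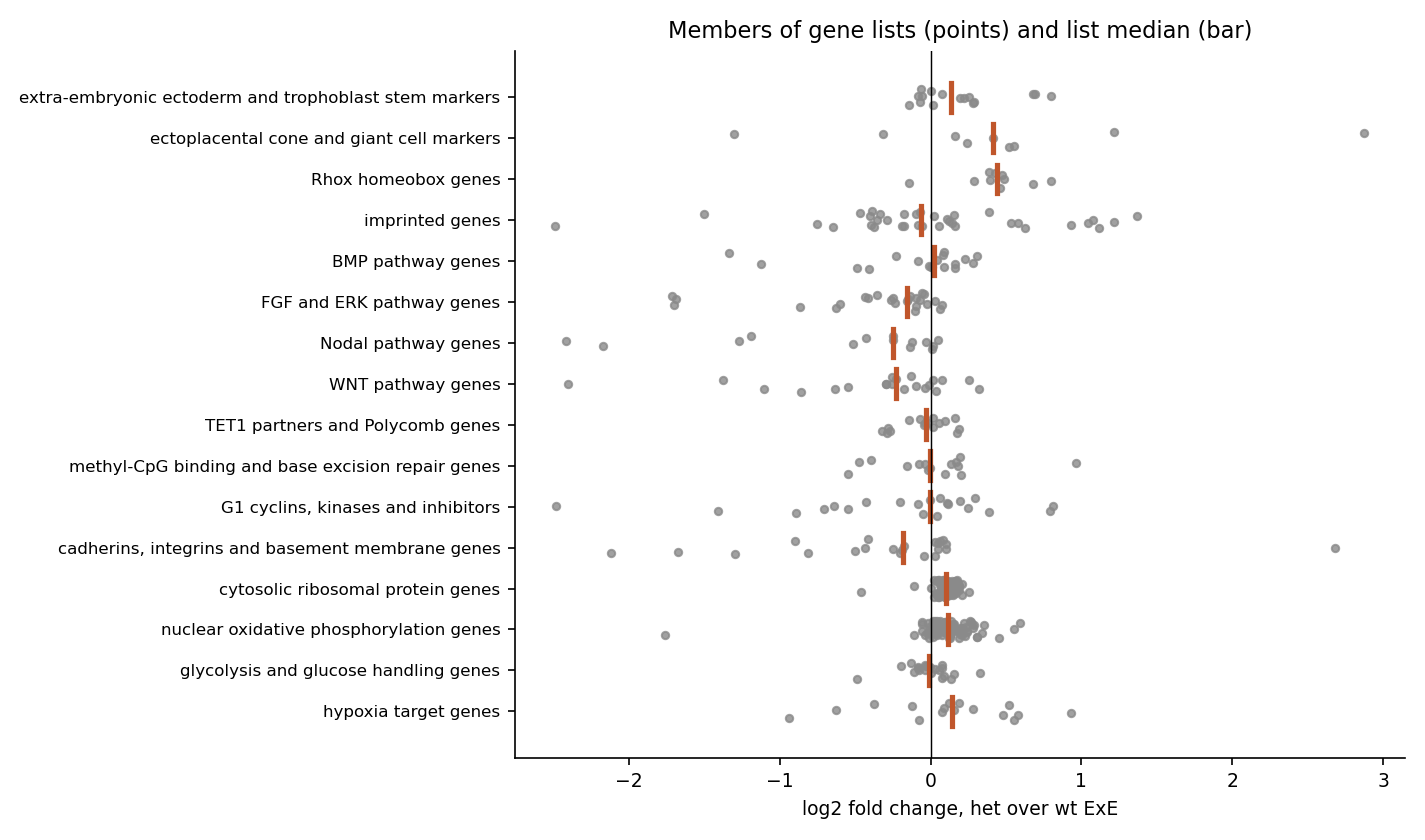
Log2 fold change of heterozygous over wild-type ExE (horizontal axis) of each tested member (points, jittered vertically) of 16 gene lists, with the list median as a bar. Rhox and ectoplacental cone genes have medians of 0.44 and 0.41, Nodal and WNT genes of -0.25 and -0.23, and ribosomal protein genes cluster closely around 0.10.

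Chromatin and repair genes stayed near the median of all genes. TET1 partners and Polycomb genes, 16 tested of 16, had a median of -0.03; Jarid2, a PRC2 cofactor, had -0.32 ± 0.14 and Sin3a, a known TET1 partner, -0.29 ± 0.18, or -0.14 without wt pool 1. Methyl-CpG binding and base excision repair genes, 15 tested of 16, had a median of -0.002. Smug1, a uracil DNA glycosylase, had 21.8, 43.3, 11.7 and 24.7 CPM in heterozygous pools and 10.9, 10.7, 12.1 and 18.5 CPM in wt pools (0.97 ± 0.36). Germline genes, many of them kept silent by promoter methylation, were higher in 13 of 16 tested of 30, with a median of 0.25 that lay between 0.06 and 0.47 on leaving out single pools. Mov10l1, an RNA helicase of the piRNA pathway, had 6.03, 9.46, 11.4 and 9.48 CPM in heterozygous pools and 3.84, 3.99, 5.11 and 4.73 CPM in wt pools (1.05 ± 0.40, edgeR adjusted p 0.679).

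The G1 list, 21 tested of 21, had a median of -0.006, or 0.09 without wt pool 1, and Ccnd1, another D-type cyclin, had -1.41 ± 0.50, with -0.42 under the epiblast covariate and -0.66 without wt pool 1. Adhesion and basement membrane genes, 22 tested of 26, had a median of -0.18. Lama1, a laminin chain made by parietal endoderm, had 1.43, 16.6, 10.5 and 3.73 CPM in heterozygous pools and 0.480, 3.54, 0.119 and 0.811 CPM in wt pools (2.68 ± 0.93). Its levels varied widely within each genotype. Fn1, fibronectin, had -0.90 ± 0.45, and -0.09 without wt pool 1.

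Metabolic lists differed by little. Of 77 ribosomal protein genes tested of 79, 75 were higher, but the median was 0.10, and 0.02 without wt pool 1. Rpl5 had 0.21 ± 0.10. Of 84 nuclear oxidative phosphorylation genes tested of 89, 72 were higher, with a median of 0.11, and 0.04 without wt pool 1. Uqcrfs1, the Rieske subunit of complex III, had 276.8, 284.2, 303.1 and 302.5 CPM in heterozygous pools and 272.0, 229.7, 218.7 and 225.0 CPM in wt pools (0.31 ± 0.11), and Atp5f1, an ATP synthase subunit, 0.24 ± 0.11. Glycolysis genes, 22 tested of 22, had a median of -0.009, or -0.08 without wt pool 1, with Slc16a1, a lactate transporter, at 0.33 ± 0.12. Hypoxia targets, 16 tested of 17, had a median of 0.14, and 0.03 without wt pool 1. Ankrd37 had 0.93 ± 0.32 and the histone demethylase gene Kdm3a -0.63 ± 0.22. Cholesterol synthesis genes, 25 tested of 25, were divided 12 to 13, with Fdps, farnesyl diphosphate synthase, at -0.38 ± 0.14 and Hsd17b7 at 0.67 ± 0.31. The proline synthesis gene Aldh18a1 had -0.31 ± 0.12.

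Whether the genotype difference in ExE departed from that in epiblast was tested for 12815 genes in a fit of 16 libraries. With edgeR 0 (0%) passed the adjusted threshold and 748 (5.84%) had an unadjusted p under 0.05, while DESeq2 called 36. Tmem8 was among the genes of smallest p: the log2 fold change in ExE minus that in epiblast was -1.90 ± 0.36 (edgeR adjusted p 0.299), and the mean in epiblast was 53.9 CPM in heterozygous and 44.4 CPM in wt pools. Qprt, of NAD synthesis, Shc2 and Prkcb, a protein kinase C, had differences of -3.41 ± 0.68, -4.92 ± 0.98 and -4.64 ± 0.94. In the epiblast their heterozygous and wt means were 30.3 and 24.9 CPM for Qprt, 22.1 and 23.04 CPM for Shc2, and 12.9 and 12.7 CPM for Prkcb. In homozygous pools Tmem8, Qprt, Shc2 and Prkcb were higher in epiblast by 2.29, 2.81, 2.45 and 3.78 log2 units. Whether the epiblast content of the ExE pools plays a part in these differences was not tested. Among the positive differences, Sgpp1, a sphingosine phosphate phosphatase, had 2.10 ± 0.48 (edgeR adjusted p 0.342). It averaged 75.1 CPM in heterozygous and 47.3 CPM in wt ExE, and 2.98 CPM in heterozygous and 8.24 CPM in wt epiblast. Without wt ExE pool 2, the wt ExE pool of lowest epiblast marker level, edgeR called 56 genes in this test. All 56 had negative differences, among them the epiblast markers Pou5f1 and Foxd3. Without heterozygous ExE pool 5 it called 1. Heterozygous epiblast pool 4, a library with a length and GC bias that was not measured here, entered this fit. Without it edgeR again called 0, but 1019 genes had an unadjusted p under 0.05, against 748 with it.

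Promoter windows were compared in composition. A median of 22 CpG sites was found in the windows of 9079 tested genes with a RefSeq entry, of 194 higher genes and of 367 lower genes at an unadjusted p under 0.05 in edgeR, and of 23 in the 145 lower genes that were not epiblast-higher. The AP-2 motif GCCNNNGGC, searched on both strands, occurred in 23.2% of higher, 27.8% of lower and 25.9% of all these windows. The GATA motif AGATAA occurred in 5.67%, 4.90% and 5.76%. A match describes the letters only.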

How the data were processed

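Bulk RNA-seq was made from SMARTer-amplified RNA (1 to 10 ng per pool, integrity number above 8, 75-bp single reads), per the labels' protocols. The submitters' processing notes name cutadapt 1.7.1, TopHat2 2.0.12 and mm10 (GRCm38). The counting program, annotation and strand setting are not given in the sources used, so reads of antisense or overlapping genes cannot be separated. The authors deposited raw counts per gene, not normalised, and 27 of the 23725 lines had symbols turned into dates. Symbols were matched to GENCODE M21 for 23363 lines.

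The comparison was fitted on the 8 ExE libraries with edgeR 4.0.16 in R 4.3.3 (filterByExpr, minimum count 10, TMM, glmQLFit and glmQLFTest, two-sided, Benjamini-Hochberg over all genes tested, threshold 0.05). Log2 fold changes are heterozygous over wt ± SE with a prior count of 0.125. The SE was derived from the test, as the absolute log2 fold change divided by the square root of its F statistic. Levels are CPM scaled by TMM over all 23 libraries, and log2 levels use a prior count of 2. DESeq2 1.42.0, limma 3.58.1 (voom), other filters and scalings, covariates, replicate blocks and leaving out each pool were alternatives. The epiblast covariate is the mean log2 CPM of 13 markers. The fits were tested on simulated data. All 12 pairs of libraries of a genotype differed by more than counting noise (chi-square 16.9 to 37.1 per degree of freedom), and p-values measure the spread between pools. Intervals and floors cover counting error only.

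The genes and lists were chosen with earlier results of these data known. Named genes are Tet1 to Tet3, the methyltransferase genes, Uhrf1 and Jmjd8; the 12 higher and 12 lower genes of smallest p whose mean log2 CPM reached 1 and whose groups were apart, since none passed the threshold; up to 3 members of smallest p and, for cell types, of highest level per list; and up to 5 genes per direction of the test between tissues. Not all genes allowed by the rule are described. Tissue preference is the difference between homozygous E and ExE pools, with those numbered 3 left out for a length and GC bias seen in earlier work on these data. This leaves ExE pools 1 and 4 on the ExE side.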

Additional observations from a re-analysis of the deposited data

Results flagged for a closer look

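In 16 of 244 groups of 4 pools examined (91 genes and 31 lists in each genotype), 1 pool stood far from the other 3, and chance alone gives about 1 in 20. Wt pool 1 was the pool apart in 8 of them. It was high for Dab2 (141.3 CPM, against 1.44 to 9.62 in the other wt pools), Apoa1 (60.5 CPM, against 0 to 6.53) and Fn1 (58.2 CPM, against 10.9 to 16.4). It was low for Ndrg1 (48.7 CPM, against 76.7 to 82.0) and Aldh18a1 (167.3 CPM, against 187.1 to 191.0). Its mean log2 CPM was low for ectoplacental cone markers (1.27, against 2.02 to 2.04), blood markers (-1.97, against -0.09 to 0.19) and Y-linked genes (-0.14, against 3.21 to 3.75).

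Wt pool 4 was low for Tmem8 (13.4 CPM, against 16.4 to 16.8) and for TET1 partners and Polycomb genes (6.99, against 7.16 to 7.17 mean log2 CPM), and high for G1 cell cycle genes (4.35, against 3.97 to 4.02). Heterozygous pool 1 was high for Arhgap8 (23.01 CPM, against 10.6 to 12.3), and low for Btbd2 (4.71 CPM, against 10.7 to 11.8) and germline genes (0.21, against 0.72 to 0.79 mean log2 CPM). Heterozygous pool 5 was high for Lef1 (6.82 CPM, against 2.72 to 3.18) and for Prkcb (0.426 CPM, against 0).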

How the results depend on the processing

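The count of 0 genes past the adjusted threshold held in limma-voom and in all edgeR alternatives except the fit of all 23 libraries. That fit called 20 genes (0 higher, 20 lower). Only 13 of them were tested in the fit of 8 libraries, and all 13 were epiblast-higher by over 1 log2 unit. DESeq2 called 44 (7 higher, 37 lower), 29 of the lower ones epiblast-higher by over 1 log2 unit. It shared 10 calls with the fit of all 23 libraries. Tet1 was lower in all alternatives, with log2 fold changes of -1.09 to -0.79. For the difference between tissues, DESeq2 called 36, and leaving out single pools gave 0 to 56. At an unadjusted p under 0.05 in edgeR, the higher genes numbered 170 (without heterozygous pool 3) to 397 (without wt pool 4) on leaving out single pools, and the lower ones 320 (without wt pool 1) to 631. Without a filter the counts were 423 and 863, and in the fit of all 11 ExE libraries 125 and 385, or 284 and 600 when homozygous pool 3 was left out of it.

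The deviations of same-numbered heterozygous and wt pools had correlations of -0.014, -0.002 and -0.064, and those of differently numbered pools -0.104 to 0.115. With so few same-numbered pairs, this cannot decide whether the numbers pair the pools. With the pool number as a replicate block, edgeR called 0 genes on 8 and on 11 libraries, with 179 and 54 higher and 399 and 203 lower genes at an unadjusted p under 0.05, and 0 for the difference between tissues.

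Of 91 genes, 13 changed sign in at least 1 alternative (43 of 2093 values). With the epiblast covariate the log2 fold change was -0.00245 for Dnmt1, 0.15 for Jmjd8, 0.0459 for Sox3, 0.41 for Dab2, 3.45 for Apoa1, 0.35 for Lrp2, -0.0437 for Wnt7b, -0.21 for Hand1 and 0.17 for Nodal. Without wt pools 1 and 4, a setting chosen after seeing the data, it was -0.15 for Tet2, -0.0666 for Dnmt1, 0.29 for Jmjd8, 0.10 for Sox3, 0.45 for Dab2, 4.38 for Apoa1, 0.13 for Lrp2, -0.0527 for Wnt7b, -0.20 for Hand1, 0.46 for Nodal and 0.12 for Id3. With the visceral endoderm covariate it was -0.000163 for Dnmt1 and 0.0432 for Jmjd8, and with the length and GC correction 0.17 for Tet3. With the replicate block it was 0.0251 for Utf1, 0.19 for Sox3, 0.92 for Apoa1 (8 libraries) and -0.0345 for Hand1 (11 libraries). The cause was not tested.

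On leaving out single pools it lay between -0.23 and 0.063 for Tet3, -0.0344 and 0.0896 for Dnmt1, -0.20 and 0.11 for Jmjd8, -0.21 and 0.17 for Sox3, -2.96 and 0.0643 for Dab2, -0.0529 and 0.18 for Wnt7b, and -0.0632 and 0.47 for Hand1. Of 31 list medians, 19 changed sign in at least 1 alternative. A level under 0.430 CPM, or 3 counts, could not be told apart from 0 in the shallowest heterozygous pool.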
